A study of Mus musculus with 29 samples.

Results

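The cholesterol synthesis genes, 8 in number, were followed through all 29 libraries of mouse tibialis anterior (TA) muscle, as the rows of the deposited count table that carry their symbols. They are 8 of the 22537 genes in the table. The 6 enzymes, in the order of the steps, are Hmgcs1, Idi1, Fdps, Fdft1, Sqle and Cyp51, and the 2 regulators are Insig1 and Scap. In GENCODE M21 (GRCm38) the enzyme genes are at chr13:119690379-119708260 (Hmgcs1), chr13:8885501-8892451 (Idi1), chr3:89093588-89101959 (Fdps), chr14:63145150-63179578 (Fdft1), chr15:59315077-59331192 (Sqle) and chr5:4081145-4104746 (Cyp51), and those of the regulators at chr5:28071363-28078662 (Insig1) and chr9:110333288-110384950 (Scap). None of them takes up cholesterol, and the uptake genes are described after them as a list of their own. The libraries came from 22 male C57BL/6 mice, 7 at 6 months of age (6m), 7 at 24 months (24m) and 8 at 28 months (28m). The labels describe the last age as 28 months or more. The study describes no drug treatment or genetic change, apart from anaesthesia with ketamine and xylazine before the muscles were taken. All ages had been through a battery of strength, running and motor tests. One library was made from the whole TA of each 24m and 28m mouse, and the 7 mice at 6m each gave 2 libraries, one in the first run with the 24m mice and one in the second run with the 28m mice. Each older age was therefore set against the 6m libraries of its own run. All values come from mice of a single strain and sex, and the 6m libraries of both runs share their animals.

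Cholesterol is built in the cytosol and endoplasmic reticulum from acetyl-CoA through mevalonate, isoprenoid diphosphates, squalene and lanosterol. The genes of the enzymes are driven by the transcription factor SREBP2, the product of Srebf2. Scap escorts the SREBP precursors from the endoplasmic reticulum to the Golgi, where they are cut and released, and Insig proteins hold Scap back when sterols are plentiful. The farnesyl diphosphate made by the pathway also feeds ubiquinone, dolichol and the prenyl groups of small GTPases.

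Total counts per library were between 17633475 and 33499162. Levels are given as CPM, the counts of a gene relative to the library total, with totals scaled by TMM (trimmed means of M values) over the 29 libraries. The tissue label was checked on fibre genes. The fast myosin gene Myh4 was between 27421 and 70340 CPM in every library, and the slow myosin gene Myh7 was between 1.42 and 14.5 CPM. Among the first-run libraries, replicate 4 at 24m stood apart, with the highest summed level of slow fibre markers (112 CPM, against up to 21.8 CPM at 6m) and of macrophage markers (185 CPM, against up to 64.1 CPM). The 2 libraries of 6m mouse 4 also differed more from each other than those of any other mouse, with an SD of 0.62 across genes on the log2 scale against 0.24 to 0.28. The 24m values of the members are given with and without the replicate 4 libraries.

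The promoters of the pair of members that fell at 28m are shown, with matches to the motifs of SREBP2 and of its partner NF-Y. RefSeq promoters (build GRCm38.p6) were found for 5 of the 8 members, namely Cyp51, Hmgcs1, Idi1, Insig1 and Scap. The motifs were searched in the 250 bases before each RefSeq start. In GENCODE the gene of Insig1 begins 49 bases and that of Idi1 105 bases before the end of this window, and the Cyp51 window likewise runs 49 bases into its gene, so the lines hold only the bases before both starts, 5′ to 3′ on the strand of the gene. They are the 250 bases of chr13:119690101-119690350 for Hmgcs1 and the 201 bases of chr5:28071162-28071362 for Insig1, both on the forward strand. Capitals mark matches to the core of the sterol regulatory element, spelled TCACNCCAC (GTGGNGTGA on the other strand), and to the CCAAT box (ATTGG on the other strand).
Hmgcs1: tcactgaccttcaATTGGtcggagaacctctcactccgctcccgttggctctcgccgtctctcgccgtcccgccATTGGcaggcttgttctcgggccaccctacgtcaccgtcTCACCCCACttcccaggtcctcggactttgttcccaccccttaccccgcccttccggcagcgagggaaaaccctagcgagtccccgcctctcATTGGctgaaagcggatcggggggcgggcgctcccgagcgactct
Insig1: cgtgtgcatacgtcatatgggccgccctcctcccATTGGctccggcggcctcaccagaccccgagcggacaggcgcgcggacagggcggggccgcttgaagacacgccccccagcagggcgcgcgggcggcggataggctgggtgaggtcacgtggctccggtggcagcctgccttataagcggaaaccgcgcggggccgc
The element core was found in the Hmgcs1 promoter, where it began 137 bases before the start, and in none of the other 4 members with a promoter. It was present in 1.05% of the 32851 RefSeq promoters of the same length. The CCAAT box was present in 33.8% of them and was found 3 times for Hmgcs1, 2 times for Idi1, and once each for Insig1 and Cyp51. The matches of Idi1 and Cyp51 lie inside the gene as GENCODE draws it. Scap, with 2 annotated starts, had no match to either motif. The matches overlapped nowhere, and they are matches of letters, not measured binding sites.

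In 28m TA muscle the members moved in both directions. Hmgcs1, which makes HMG-CoA and opens the path to mevalonate, was 14.2% lower than at 6m, and Insig1, which retains Scap in the endoplasmic reticulum, was 26.6% lower. Fdps, which makes farnesyl diphosphate, was 1.41-fold higher. These 3 of the 8 members passed an adjusted p of 0.05 (edgeR's quasi-likelihood F test, adjusted after Benjamini and Hochberg for 12994 genes), 2 lower and 1 higher, a share of 37.5%. Of all genes tested, 47.3% passed the same threshold, 22.9% lower and 24.3% higher, so the members were called no more often than genes at large. Their median log2fc was -0.23, against 0.01 over all genes. In no member did the 28m and 6m mice separate without overlap, which happened for 12.4% of all genes. In this bulk muscle, fewer cells of a type and less RNA per cell cannot be told apart.

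**Figure D1:**
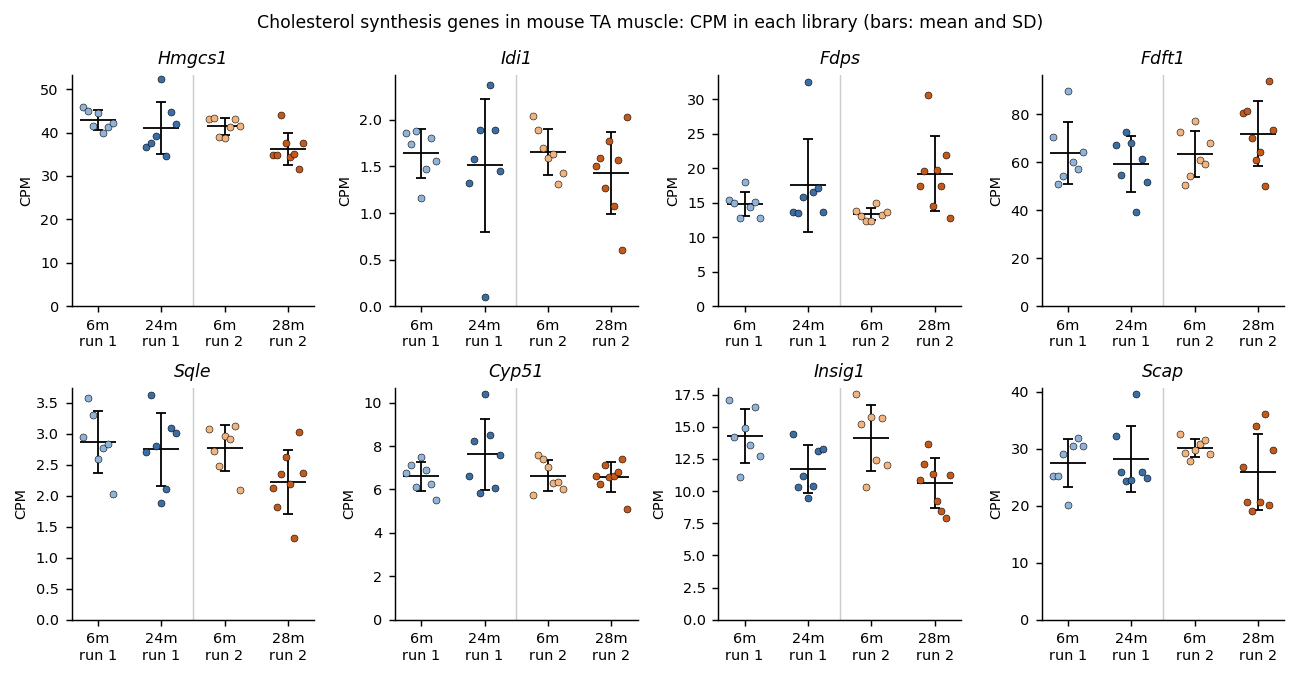
CPM (y axis, from 0) of each of the 8 genes in the 29 libraries, by age and run (x axis), with 1 point per library and bars at the mean and SD of a group; the vertical line parts the runs. Most 28m points of Hmgcs1 lie below the 6m points of their run and most of Fdps above them, while 1 library at 24m lies far from its group for Idi1 (0.105 CPM) and Fdps (32.5 CPM).

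Hmgcs1 was between 38.8 and 43.4 CPM at 6m in the second run, with a median of 41.6 CPM. At 28m it was between 31.6 and 44.1 CPM, with a median of 34.98 CPM. At 28m, 7 of 8 mice were under the lowest 6m mouse, and the remaining one, replicate 3, was over the highest. The log2fc was -0.22 ± 0.07 (SE), with an adjusted p of 0.0203 by edgeR. Without replicate 3 at 28m the difference was -0.26. The spread between mice was small at 6m, with a CV of 4.70% of the mean, and was 10.2% at 28m.

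Idi1, which isomerises isopentenyl diphosphate, was measured from few reads, with 1.31 to 2.03 CPM at 6m (median 1.63 CPM). At 28m it was between 0.600 and 2.03 CPM with a median of 1.54 CPM, which came from 16 to 48 counts per library. At 28m, 3 of 8 mice were under the lowest 6m mouse and the others were within the 6m range. The log2fc of -0.24 ± 0.21 (SE) had a 95% interval from -0.68 to 0.20 and did not pass the test (edgeR, adjusted p = 0.346).

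Fdps was between 12.4 and 14.98 CPM at 6m, with a median of 13.3 CPM. At 28m it was between 12.9 and 30.5 CPM, with a median of 18.5 CPM. At 28m, 6 of 8 mice were over the highest 6m mouse and none was under the lowest. The log2fc was 0.49 ± 0.14 (SE), with an adjusted p of 0.0104 by edgeR. The CV over mice was 28.2% at 28m and 6.82% at 6m, a difference that was not tested. Replicate 3 was the highest at 28m, and without it the log2fc was 0.38. Against the first-run libraries of the same 6m mice, in which Fdps was between 12.8 and 17.97 CPM, the log2fc was 0.36 with an adjusted p of 0.0785 by edgeR, so the call rested on which libraries of the 6m mice were used. That comparison also crosses the runs, and 22.96% of all genes passed in it, against 47.3% within the second run. The highest first-run value came from mouse 4, whose second-run library had 12.4 CPM. A second gene model in the annotation, Gm43738, shares 1124 exonic bases with Fdps on the same strand and has no row in the table.

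Fdft1, the squalene synthase that commits farnesyl diphosphate to sterols, was between 50.7 and 77.1 CPM at 6m (median 61.1 CPM). It was between 50.3 and 93.8 CPM at 28m, with a median of 72.0 CPM. At 28m, 3 of 8 mice were over the highest 6m mouse and 1 was under the lowest. The log2fc of 0.16 ± 0.12 (SE) did not pass the test (edgeR, adjusted p = 0.308). Fdft1 shares 774 exonic bases with Ctsb on the opposite strand, and the strand setting of the counting is not given in the sources used here. The log2fc of Ctsb, a lysosomal protease, was 0.22 (edgeR, adjusted p = 0.148).

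Sqle, the squalene epoxidase, was between 2.10 and 3.13 CPM at 6m (median 2.92 CPM). It was between 1.32 and 3.04 CPM at 28m, with a median of 2.27 CPM from 31 to 81 counts per library. At 28m, 7 of 8 mice were under the 6m mean, and 2 were under the lowest 6m mouse. The log2fc of -0.34 ± 0.16 (SE) had a 95% interval from -0.67 to -0.01 and an adjusted p of 0.0835 by edgeR. It missed the threshold, and passed it without replicate 7 at 28m, the highest Sqle of its group, with a log2fc of -0.41 and an adjusted p of 0.0365 by edgeR.

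Cyp51, the lanosterol 14-alpha-demethylase, was between 5.74 and 7.60 CPM at 6m (median 6.33 CPM) and between 5.11 and 7.42 CPM at 28m (median 6.62 CPM). The groups covered the same range, apart from replicate 8 at 28m. The log2fc was -0.04 ± 0.10 (SE), with a 95% interval from -0.24 to 0.16 (edgeR, adjusted p = 0.732). Under upper-quartile scaling it was 0.00, and without replicate 8 it was also 0.00. Cyp51 shares 166 exonic bases with Akap9 on the opposite strand, and Akap9, which anchors protein kinase A, was lower at 28m with a log2fc of -0.36 (edgeR, adjusted p = 0.0163).

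Among the regulators, Insig1 was between 10.3 and 17.5 CPM at 6m, with a median of 15.2 CPM. At 28m it was between 7.87 and 13.7 CPM, with a median of 11.1 CPM. All 8 mice at 28m were under the 6m mean but only 3 were under the lowest 6m mouse, so the groups overlapped. The log2fc was -0.45 ± 0.13 (SE), with an adjusted p of 0.0128 by edgeR. Without any single library it stayed between -0.51 and -0.38.

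Scap was between 27.9 and 32.7 CPM at 6m, with a median of 29.8 CPM. At 28m it was between 19.1 and 36.1 CPM, with a median of 23.8 CPM. At 28m, 5 of 8 mice were under the lowest 6m mouse and 2 were over the highest, and the CV was 26.1% against 5.36% at 6m. The log2fc of -0.24 ± 0.14 (SE) did not pass the test (edgeR, adjusted p = 0.158). It passed without replicate 6 at 28m, the highest Scap of its group, with -0.33 and an adjusted p of 0.0435 by edgeR.

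**Figure D2:**
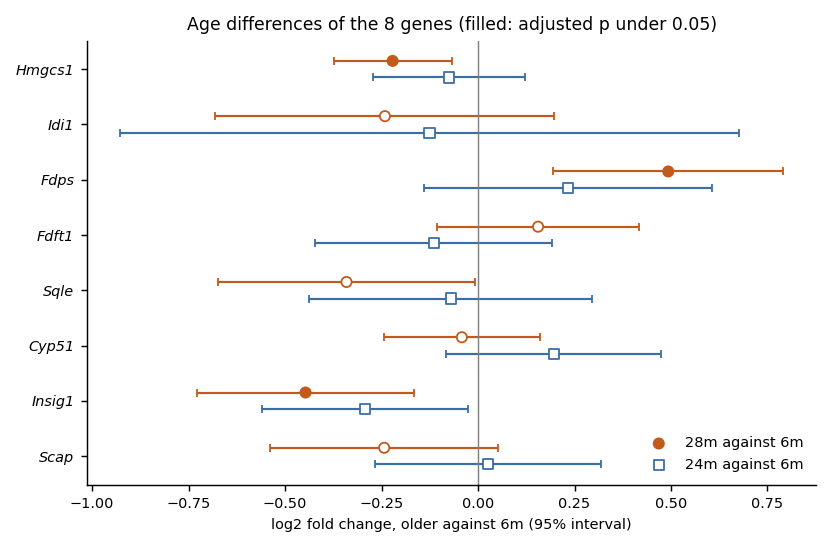
Log2 fold change (x axis) of the 8 genes (y axis) at 28m against the second-run 6m libraries (circles) and at 24m against the first-run 6m libraries (squares), with 95% intervals from edgeR; filled symbols passed an adjusted p of 0.05. At 28m Hmgcs1 and Insig1 lie below 0 and Fdps above it, and at 24m no symbol is filled.

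The mice at 28m did not order the members alike. Replicate 7 had the highest Fdft1, Sqle and Cyp51 of the 8 mice and the lowest Hmgcs1, Idi1 and Insig1. Replicate 3 had the highest Hmgcs1, Fdps and Insig1 and the lowest Scap. Replicates 1, 2, 4 and 5 held no highest or lowest value for any of the 8 members.

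A ratio of the raw reads of 2 genes within a library needs no scaling between libraries. There were between 0.302 and 0.362 reads of Fdps per read of Hmgcs1 at 6m in the second run (mean 0.323 ± 0.019, SD, n = 7). At 28m the ratio was between 0.342 and 0.694 (mean 0.530 ± 0.128, SD, n = 8), and 7 of 8 mice exceeded the highest 6m value. The pair was chosen after the values were seen, so the ratio is a description without a test. The ratio of Insig1 to Scap reads did not part the ages, with a mean of 0.467 at 6m and 0.435 at 28m.

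**Figure D3:**
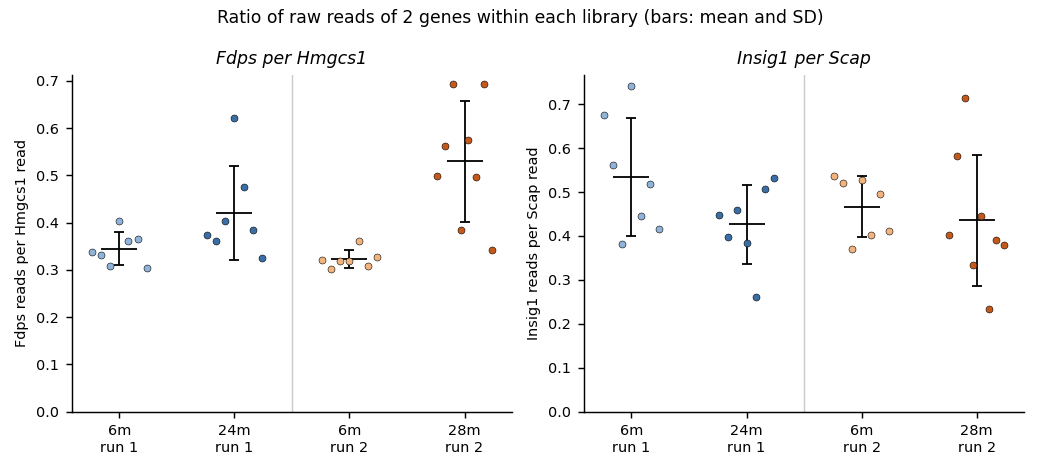
Reads of Fdps per read of Hmgcs1 (left) and of Insig1 per read of Scap (right) in each of the 29 libraries (y axes, from 0), by age and run (x axes), with bars at the mean and SD. At 28m 7 of 8 points of the left panel lie above the highest 6m point of their run, 0.362, and the points of the right panel overlap.

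None of the 8 members passed the test at 24m. Of the 13103 genes tested there by edgeR, 11 passed (0.0840%), 0.0229% being lower and 0.0611% higher. An unadjusted p under 0.05 was reached by 1546. The count was 5 without replicate 2 at 6m, 4 without replicate 5 or 6 at 6m and 30 without replicate 4 at 24m. The ages did not overlap for 0.588% of all genes and for none of the members. DESeq2 called 215 genes and none of the members. Insig1 came nearest, with 11.1 to 17.05 CPM at 6m in the first run (median 14.2 CPM) and 9.44 to 14.5 CPM at 24m (median 11.2 CPM). At 24m, 6 of 7 mice were under the 6m mean. The log2fc was -0.29 ± 0.13 (SE), with an adjusted p of 0.400 by edgeR. Hmgcs1 was between 39.8 and 45.8 CPM at 6m and between 34.7 and 52.3 CPM at 24m, and its log2fc was -0.08. At 24m, 4 of 7 mice were under the lowest 6m mouse, and replicate 4 was over the highest.

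Replicate 4 at 24m set the extremes of most members. It had the highest Hmgcs1, Fdps and Cyp51 of its group and the lowest Idi1, Sqle and Insig1. Idi1 was at 0.105 CPM there, from 3 counts, against 1.32 to 2.37 CPM in the other 6 libraries of its group. Fdps was at 32.5 CPM there, against 13.6 to 17.1 CPM in the others. With all libraries the log2fc at 24m was -0.13 for Idi1 and 0.23 for Fdps, and with both replicate 4 libraries of the first run left out it was 0.02 and 0.07. Hmgcs1 went from -0.08 to -0.13, Cyp51 from 0.20 to 0.14, Fdft1 from -0.11 to -0.05, Sqle from -0.07 to -0.02, Insig1 from -0.29 to -0.24 and Scap from 0.03 to -0.00106. None of the members passed the test either way.

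Whether the age effects at 28m and 24m differed was tested as a contrast over all 29 libraries. No gene of 13455 passed that test by edgeR, although 1611 had an unadjusted p under 0.05, and among the members the adjusted p was never under 0.518. That fit left out the pairing of the 6m libraries by mouse. With the mouse as a block in limma-voom, 2865 genes had an unadjusted p under 0.05, and again no gene passed. The edgeR estimates of the difference, 28m minus 24m, ran from -0.26 for Scap to 0.29 for Fdft1 on the log2 scale. For Insig1, the estimate was -0.13 with a 95% interval from -0.51 to 0.24. The lower Insig1 at 28m is thus not shown to differ from the value at 24m, and both effects rest on the same 7 mice at 6m. The contrast depended on 1 library: without replicate 4 at 24m it called 1657 genes, still none of the members, and the difference for Fdps was 0.50 with an adjusted p of 0.0613 by edgeR.

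The 7 mice at 6m that were sequenced in both runs show how far libraries of the same mouse differ, which leaves out differences between mice. No gene passed between their libraries by edgeR, and the members differed by -0.13 (Fdps) to 0.14 (Scap) on the log2 scale, second run minus first. In that fit, which left out the pairing by mouse, 357 genes had an unadjusted p under 0.05. With the mouse as a block in the fit there were 1052, and again no gene passed. Within a mouse, the SD of the differences between runs was 0.09 for Hmgcs1 and Insig1, 0.21 for Fdps and 0.27 for Idi1. The largest differences between the runs for Hmgcs1, Fdps, Fdft1 and Scap were all in mouse 4, with 0.57 for Scap.

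Levels of the members were also compared per kilobase of exon, which allows an order between genes. At 6m in the second run Fdft1 was the highest at 14.99 CPM per kilobase, followed by Hmgcs1 at 9.03. Insig1 (4.57 CPM per kilobase), Scap (4.06) and Fdps (3.18) came next, and over the 7 mice the range of Insig1 (3.34 to 5.67) overlapped those of the other two. Cyp51 was at 1.503 CPM per kilobase, and Sqle (0.4998) and Idi1 (0.472) were the lowest, with overlapping ranges. At 28m Fdps was at 4.57 CPM per kilobase, before Scap at 3.48 and Insig1 at 3.42, and the ranges of these 3 genes over the mice overlapped.

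The other enzymes of the pathway were described as a list of 13 genes, all of which could be tested. At 28m 2 were lower, 6 were higher and 5 did not pass, a share called of 61.5% against 47.3% of all genes, and the median log2fc was 0.28 against 0.01. With the trend in length and GC content removed 6 were called, 1 lower and 5 higher, against 37.2% of all genes. With the first-run 6m libraries 4 were called, 1 lower and 3 higher, against 22.96% of all genes. The lost calls included those of Acat2 (adjusted p = 0.0715), Pmvk (0.136) and Dhcr7 (0.0658) by edgeR. The higher ones with the second-run 6m libraries included enzymes of the mevalonate part. Acat2, the cytosolic acetoacetyl-CoA thiolase, had a log2fc of 0.76 ± 0.20 (SE), Mvk, the mevalonate kinase, 0.50 ± 0.12, Pmvk, the phosphomevalonate kinase, 0.52 ± 0.17, and Mvd, which makes isopentenyl diphosphate, 0.97 ± 0.25. The adjusted p was at most 0.0212 for these genes by edgeR. With the trend in length and GC content removed, Acat2 (0.51), Mvk (0.36) and Mvd (0.69) still passed, and Pmvk (0.17; edgeR, adjusted p = 0.318) did not. Mvd was between 4.97 and 6.33 CPM at 6m and between 5.53 and 20.1 CPM at 28m, and 6 of 8 exceeded the highest 6m mouse. Ebp, the sterol isomerase, was higher in every 28m mouse than in any 6m mouse, with 0.55 ± 0.11 (edgeR, adjusted p = 0.00190), and 12.4% of all genes did not overlap between these groups. With the trend in length and GC content removed, the log2fc of Ebp was 0.29 (edgeR, adjusted p = 0.0119).

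The lower ones were 2 enzymes of the last steps. Dhcr7, which makes cholesterol from 7-dehydrocholesterol, was between 5.70 and 7.49 CPM at 6m and between 4.404 and 6.05 CPM at 28m. At 28m 6 of 8 mice were under the lowest 6m mouse, and the log2fc was -0.38 ± 0.10 (SE; edgeR, adjusted p = 0.00639). With the trend in length and GC content removed, the log2fc of Dhcr7 was -0.16 and no longer passed (edgeR, adjusted p = 0.154). Sc5d, the sterol C5-desaturase, was outside the rule for named genes and was chosen after its values were seen, with a log2fc of -0.40 ± 0.14 (edgeR, adjusted p = 0.0255). Over all 19 enzymes, the 6 members included, 3 were lower, 7 higher and 9 did not pass, a share called of 52.6% against 47.3% of all genes, with a median of 0.09. At 24m none of the 19 passed, against 0.0840% of all genes.

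**Figure D4:**
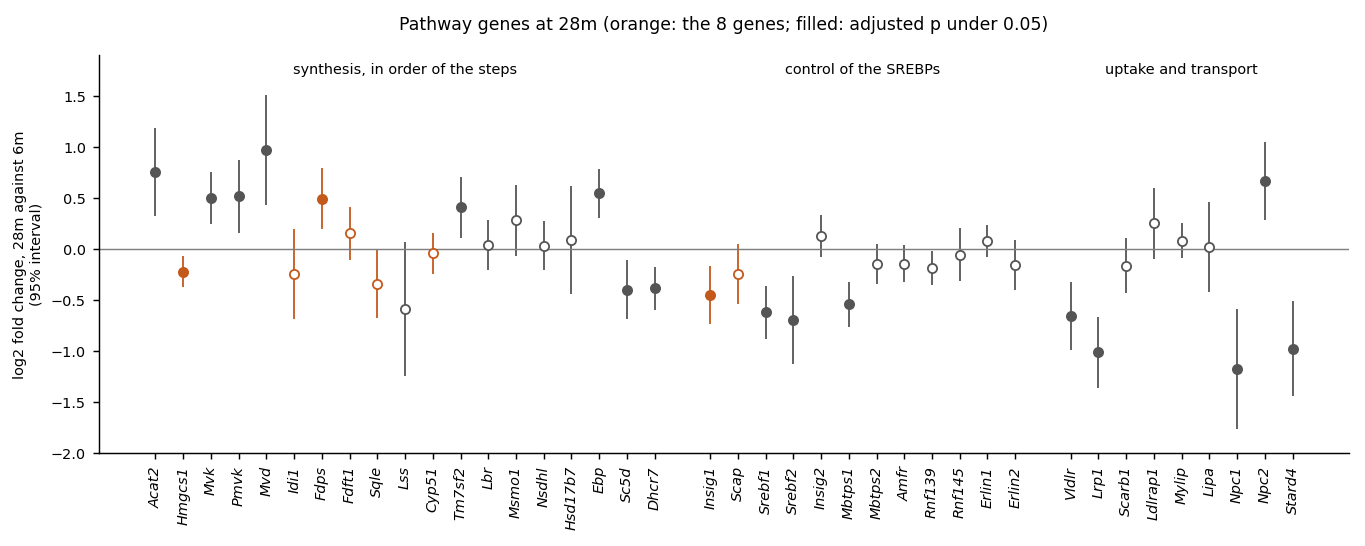
Log2 fold change at 28m against 6m of the second run (y axis, with 95% intervals from edgeR) of the 19 enzymes in the order of their steps, of the genes that control the SREBPs and of the uptake and transport genes (x axis); the 8 members are orange, and filled symbols passed an adjusted p of 0.05. Filled symbols stand on both sides of 0, with Mvd at 0.97 and Dhcr7 at -0.38 among the enzymes and Npc1 at -1.17 among the transport genes.

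The genes that control the SREBPs were a list of 10 beside Insig1 and Scap. At 28m 3 were lower, none was higher and 7 did not pass, a share called of 30.0% against 47.3% of all genes. With the trend in length and GC content removed 1 was called, against 37.2% of all genes, and Mbtps1 (-0.11) and Srebf1 (-0.32) no longer passed by edgeR. Srebf2 was between 16.6 and 24.2 CPM at 6m and between 7.54 and 22.6 CPM at 28m, where 7 of 8 mice were under the lowest 6m mouse. Its log2fc was -0.69 ± 0.20 (SE), with an adjusted p of 0.0119 by edgeR. Against the first-run 6m libraries, a comparison that crosses the runs, it was -0.52 with an adjusted p of 0.0752 by edgeR. This call, like that of Fdps, thus rested on which libraries of the 6m mice were used. Srebf1, the gene of the SREBP that serves fatty acid synthesis, had -0.62 ± 0.12 (adjusted p = 0.00150 by edgeR), and Mbtps1, the site-1 protease that cuts the precursors, -0.54 ± 0.10 (adjusted p = 0.00132 by edgeR). Insig2, the second Insig gene, had a log2fc of 0.13 (adjusted p = 0.268 by edgeR). At 24m Srebf1 was the gene of these lists that passed, with -0.77 ± 0.12 and an adjusted p of 0.0165 by edgeR, and all 7 mice at 24m were under the lowest 6m mouse. Of all genes, 0.0840% passed at 24m and 0.588% did not overlap between the groups. The Srebf1 call at 24m was lost when replicate 2, 5 or 6 at 6m of the first run was left out.

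Of the 9 uptake and transport genes, 4 were lower at 28m and 1 was higher, a share called of 55.6% against 47.3% of all genes. With the trend in length and GC content removed 3 were lower and 2 higher, Lrp1 no longer passed (-0.32; edgeR, adjusted p = 0.165), and Vldlr was at -0.34 (edgeR, adjusted p = 0.0494). The receptors Vldlr (-0.66 ± 0.16) and Lrp1 (-1.01 ± 0.17), the lysosomal exporter Npc1 (-1.17 ± 0.28) and the sterol carrier Stard4 (-0.98 ± 0.22) were lower, with an adjusted p of at most 0.00415 by edgeR. Npc1 and Stard4 did not overlap between the ages, as was the case for 12.4% of all genes. Npc2, the soluble partner of Npc1, was higher with 0.67 ± 0.18 (adjusted p = 0.00765 by edgeR).

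Of 8 genes of efflux and storage, 1 was lower at 28m, the cholesterol ester hydrolase Nceh1 (-0.35 ± 0.12; edgeR, adjusted p = 0.0199), and none was higher, a share called of 12.5% against 47.3% of all genes. The count was 2 under upper-quartile scaling and without replicate 2 at 6m or replicate 5 or 7 at 28m. Of 9 genes of the branches that leave from farnesyl diphosphate, 2 were lower, Ggps1, which makes geranylgeranyl diphosphate (-0.34 ± 0.11), and Pggt1b, a subunit of a geranylgeranyl transferase (-1.38 ± 0.31). Coq2, of ubiquinone synthesis (0.37 ± 0.10), and Fnta, a subunit of the farnesyl transferase (0.32 ± 0.10), were higher. The largest adjusted p of these 4 genes was 0.0212 by edgeR, and the share called was 44.4% against 47.3% of all genes. With the first-run 6m libraries 1 of the 4 calls was left, while the share of all genes called went to 22.96%, and Coq2 (adjusted p = 0.220), Fnta (0.338) and Ggps1 (0.104) no longer passed by edgeR. Fnta also missed the threshold when all 29 libraries shared a dispersion (edgeR, adjusted p = 0.0640).

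Differences at 28m moved with the exonic length of genes. All genes with a known length were put into 10 bins of like number by length. The median log2fc was 0.55 in the bin of the shortest genes (281 to 1788 bases) and -0.43 in that of the longest (9938 bases and more). Of the 19 enzymes, the 3 lower ones had a median length of 4866 bases and the 7 higher ones 2544 bases, against 4490 bases over all genes tested. The 4 lower uptake genes had a median length of 10693 bases. Hmgcs1 (4594 bases), Fdps (4208 bases), Fdft1 (4227 bases) and Cyp51 (4415 bases) are of middling length, and all genes of their length bins had medians of -0.08 for Hmgcs1 and 0.01 for the others. Insig1, with 3093 bases, fell although genes of its length bin had a median of 0.20. Scap, with 7443 bases, lay near the median of its bin, -0.20.

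With a trend in length and GC content removed from each library, the 3 members called at 28m were called again by edgeR, while the share of all genes called went from 47.3% to 37.2%. The log2fc was -0.23 for Hmgcs1 (adjusted p = 0.00903), 0.54 for Fdps (adjusted p = 0.0115) and -0.59 for Insig1 (adjusted p = 0.00371). Sqle went from -0.34 to -0.18, and Scap turned from -0.24 to 0.12, with an adjusted p of 0.208 by edgeR. Among the other named genes, Srebf1 (-0.32), Mbtps1 (-0.11), Lrp1 (-0.32), Dhcr7 (-0.16), Pmvk (0.17), Nceh1 (-0.27), Coq2 (0.21) and Fnta (0.15) no longer passed, and 2 of the 4 calls among the branch genes were left. The named genes that still passed were Acat2 (0.51), Mvk (0.36), Mvd (0.69), Ebp (0.29), Srebf2 (-0.37), Vldlr (-0.34), Npc1 (-0.85), Npc2 (0.88), Stard4 (-0.89), Ggps1 (-0.36) and Pggt1b (-1.09).

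**Figure D5:**
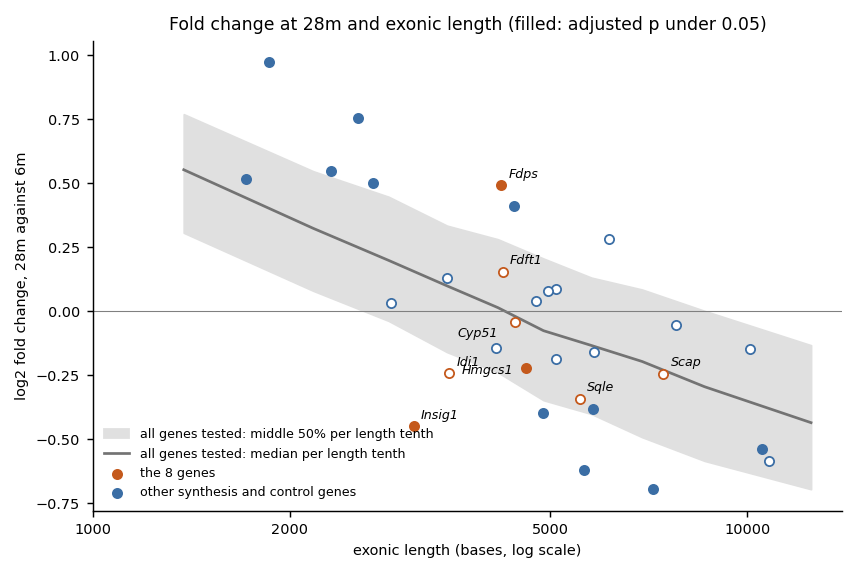
Log2 fold change at 28m against 6m (y axis) over exonic length in bases (x axis, log scale), with the median (line) and the middle 50% (shading) of all genes tested in each of 10 length bins; orange points are the 8 genes, blue points the other synthesis and control genes, and filled points passed an adjusted p of 0.05. The line falls from 0.55 to -0.43, Fdps lies above it, and Insig1 lies below it.

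Markers of cell types were read beside the members in whole lists, and none of the markers was at 0 in any library. Of all genes 22.9% were lower and 24.3% higher at 28m, against which the counts of these short lists are to be read. Of 4 endothelial markers, 3 were lower and 1 was higher at 28m, and their summed level was between 168 and 241 CPM, against 288 to 319 CPM at 6m. Of 4 fibroblast markers 2 were lower, with a sum between 240.0 and 789.9 CPM at 28m and between 414 and 1377 CPM at 6m. Of 3 slow fibre markers 2 were higher, and of 5 fast fibre markers 2 were higher and 1 lower. Among 5 adipocyte markers 1 was higher, with a sum of 10.03 to 182 CPM against 14.1 to 51.7 CPM, and among 5 Schwann cell markers, whose cells make much cholesterol for myelin, 1 was higher, with a sum of 30.2 to 54.6 CPM against 36.0 to 53.8 CPM. None of 4 macrophage markers passed. The part of these cell types in the differences of the members was not tested.

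Outside these lists, 5 genes varied most like the mean of the enzymes from library to library within the groups. Likeness was the root mean square difference, over the 29 libraries, between a gene's group-centred, standardised log2 CPM and the mean of the 6 enzyme members, so age differences do not enter. Each 6m mouse entered with both of its libraries. The genes were Ssr2 (0.477), Slc35b1 (0.564), Cars2 (0.593), Sumo3 (0.601) and Kctd6 (0.615). The enzymes themselves were at 0.818 for Fdps to 1.67 for Idi1, against a median of 1.42 over all genes, so Idi1 was further from their mean than the median gene. In the other lists, Pmvk (0.768) and Fnta (0.809) were nearer than any member.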

How the data were processed

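Poly-A RNA of whole TA muscle was sequenced from 22 mice in 29 libraries with 75-base single-end reads. Per the labels and methods, STAR 2.5.4b mapped them to mm10 and counted them per gene of a UCSC annotation from iGenomes, and the raw counts per gene symbol were deposited by the authors without scaling. The strand setting of the counting is not given in the sources used here. Groups and runs were taken from the labels, which give 7 mice at 24m and 8 at 28m, whereas the design text of the series gives the reverse. Replicate numbers follow the order of deposition, and the mouse behind a repeated 6m library was read from its name.

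The tests used edgeR 4.0.16 under R 4.3.3 (filterByExpr, TMM, quasi-likelihood F test, Benjamini-Hochberg adjustment over all genes tested, called at 0.05), on the whole table and within a run. Alternatives used DESeq2 1.42.0 and limma 3.58.1. Log2 CPM had a prior count of 2. Standard errors and 95% intervals were derived from the F test. Lengths, GC content and overlaps were read from GENCODE M21, in which 20202 genes were found by symbol and 1867 by an older name. Each sample is a separate mouse, apart from the repeated 6m libraries. Those named after the same mouse shared their deviations from the group means (r of 0.218 to 0.814 over 13455 genes, 1 value per mouse). Libraries of different mice were not compared in this way, so the pairing rests on the names.

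The members and the gene lists were chosen with earlier results of these data known. Named genes were the 8 members, up to 6 genes per other list with the smallest adjusted p at 28m among those under 0.05, and Srebf2 and Insig2 whatever their value. Further genes of the lists are not reported here and were left out of every list count. For likeness, the 5 nearest genes outside the lists were named. The scripts were tested on simulated data. Idi1 and Sqle were counted least, with 3 to 113 counts per library. CPM of single libraries cover counting error and differences between mice together.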

Additional observations from a re-analysis of the deposited data

Results flagged for a closer look

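The values of the 8 members were examined for a single library far from the rest in 32 groups (8 genes in 4 groups each), and 3 were found; chance alone gives about 1 in 20 groups. Idi1 was at 0.105 CPM, from 3 counts, in replicate 4 at 24m, where the other libraries of that age were between 1.32 and 2.37 CPM. Fdps was at 32.5 CPM in the same library, where the others were between 13.6 and 17.1 CPM. Cyp51 was at 5.11 CPM in replicate 8 at 28m, where the others were between 6.24 and 7.42 CPM. Replicate 4 at 24m also had the highest summed slow fibre (112 CPM) and macrophage (185 CPM) markers of its group, and their part in the Idi1 and Fdps values was not tested. The difference between the age effects passed the test for none of the members.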

How the results depend on the processing

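The 3 calls among the members at 28m were made under DESeq2, limma-voom, both other scalings, both other filters, the shared dispersion and the removed trend in length and GC content, and leaving out any 1 library gave 3 or 4 calls. With the 6m libraries of the other run 2 were called, Fdps being lost, and all genes called went from 6140 to 2981. Members called at 24m, between the age effects and between the runs stayed at 0 under every alternative run, leaving out single libraries included, while all genes called at 24m went from 11 to between 4 and 215 and, without both replicate 4 libraries, to 121, an alternative chosen after seeing the data. Upper-quartile scaling moved the median of all genes at 28m from 0.01 to 0.05. Idi1 could not be tested at 24m with at least 10 counts in every library. Among the member values under single alternatives, 627 kept sign and side of the threshold, 33 changed sign, 2 were gained and 1 was lost; none of those that changed sign was past the threshold, and the cause was not tested.

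Log2fc values that changed sign were as follows. At 28m they were 0.000222 for Cyp51 under upper-quartile scaling, 0.12 for Scap with the trend removed, and -0.000598 for Insig2 with the other run's 6m libraries. At 24m they were 0.017 for Idi1 and -0.00106 for Scap without both replicate 4 libraries, and -0.12 for Scap with the other run. Leaving out single libraries gave -0.070 to 0.00082 for Cyp51 at 28m, and -0.26 to 0.082 for Idi1, -0.16 to 0.0067 for Sqle and -0.066 to 0.064 for Scap at 24m. Between the age effects, Idi1 was between -0.30 and 0.029. Between the runs, the ranges were -0.043 to 0.090 for Idi1, -0.027 to 0.039 for Fdft1, -0.084 to 0.032 for Sqle, -0.026 to 0.044 for Cyp51 and -0.026 to 0.0086 for Insig1, and Fdft1 was -0.00335 with DESeq2's size factors.

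With the mouse as a replicate block, 0 members passed between the age effects (limma-voom, Idi1 at 0.19) and 0 between the runs (edgeR), and the block changed no other call. With the block and the trend removed together, Fdft1 was -0.015 and Insig1 0.029 between the runs. The ages hold different mice, so the age comparisons themselves could not be paired.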
